A study of Mus musculus with 9 samples.

Results

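The 10 genes described here encode proteins of the neutrophil's antimicrobial stores and are 10 of 18194 genes measured in osteocyte-enriched mouse bone. Mpo, Elane, Prtn3 and Ctsg are the 4 primary granule genes, and Ltf, Camp, Ngp, Lcn2, S100a8 and Olfm4 are the 6 genes switched on later in maturation. They were chosen by name and stage, with earlier results of these arrays known, so their values are given as a description and the fit's p-values for them are no independent support. Among probe sets annotated to a single gene, the brightest on average was to stand for it. Each of the 10 genes had exactly 1, so no measured value decided between probe sets.

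Neutrophils mature in the marrow through a fixed series of stages, and each stage fills its own kind of granule. Promyelocytes transcribe myeloperoxidase and the serine proteases of the primary (azurophil) granules and then shut these genes down. Myelocytes and metamyelocytes turn on the genes of the specific granules, such as lactoferrin and the cathelicidin peptide, while transcripts of the cytosolic S100 proteins accumulate towards the mature cell. In a mixed tissue sample, fewer cells of a stage and less RNA per cell cannot be told apart, and this holds for every value below.

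RNA came from tibial shafts of wild type CD1 mice aged 16 to 18 weeks, in 3 groups of 3 Affymetrix mouse arrays. The post-lactation mice were taken 7 days after weaning that was forced on day 12 of lactation, the lactation mice on day 12 of lactation, and the virgin mice were controls of the same age that had no litter. Dams nursed 8 to 13 pups. Periosteum and marrow were removed from the shafts, and collagenase, trypsin and EDTA digestions in turn stripped the surface cells, to leave osteocytes. Neutrophils are thus not the labelled cell type of any array. The stated purpose of the series was to identify genes responsible for the turnover of matrix around osteocyte lacunae. Groups were taken from the array titles: another label field calls the post-lactation arrays virgin, and one sentence of the extraction protocol names femurs. No label says whether each array is a separate mouse, so the errors measure the spread between arrays, which may in part be technical.

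The deposited values are log2 signals, and those of different probe sets are not compared with each other here. Exactly equal values were taken to mean that the arrays had been summarised in 3 sets, each with 1 array of every group. No label names these sets. Array set 1 held post-lactation 1, lactation 3 and virgin 1, set 2 held post-lactation 3, lactation 2 and virgin 2, and set 3 held post-lactation 2, lactation 1 and virgin 3. Set 1 had array medians of 4.32 to 4.34, set 2 of 4.80 to 4.82 and set 3 of 4.57. Each difference was therefore also taken between arrays of 1 set, and fitted with an array set block. Virgin 1 stood apart in its osteocyte markers: Sost was 8.14 on virgin 1, against 13.39 on virgin 2 and 13.55 on virgin 3. It was also the highest array for neutrophil genes when signals were taken above the array median. On this scale the 4 primary members averaged 8.15 on virgin 1, against 6.47 to 7.37 on the other arrays. The 6 later members averaged 8.88 on virgin 1, little above the 8.81 on post-lactation 1. The other specific granule genes listed below averaged 5.95 (at most 5.43 elsewhere), and the mature neutrophil genes 5.83 (at most 5.18 elsewhere). The comparisons of the members with virgin mice are therefore also given without virgin 1. The labelled cell type was otherwise present on the arrays, since Dmp1, an osteocyte matrix protein, ran from 11.90 to 14.08 over all 9. The lowest Dmp1 value was on virgin 1, against 13.8 on virgin 2 and 13.9 on virgin 3. Another osteocyte gene, Fgf23, which encodes a phosphate-regulating hormone, stayed between 2.60 and 4.46, below the 40th percentile of gene means (4.87) that stands for a low signal here.

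The promoters of the granule genes are shown first, as a description of both classes. Whether they bear on the differences between the groups was not tested. The 250 bases before the annotated start of 7 members follow, from RefSeq on build GRCm38.p6, 5′ to 3′ on the gene's own strand. All 10 members were found in the promoter table, which also holds 50 bases after the start that were searched but are not printed. Capitals mark AGGAAGT or its reverse complement, the core of the sequence that ETS factors such as PU.1 bind. The 4 primary promoters are given because all of them hold it, Olfm4 because it changed most, and Ltf and Camp as later genes without it. Mpo lies at chr11:87793534-87793783 (plus strand), Elane at chr10:79886062-79886311 (plus strand), Prtn3 at chr10:79879417-79879666 (plus strand) and Ctsg at chr14:56102575-56102824 (minus strand). Olfm4 lies at chr14:80000052-80000301 (plus strand), Ltf at chr9:111019042-111019291 (plus strand) and Camp at chr9:109849457-109849706 (minus strand).
Mpo: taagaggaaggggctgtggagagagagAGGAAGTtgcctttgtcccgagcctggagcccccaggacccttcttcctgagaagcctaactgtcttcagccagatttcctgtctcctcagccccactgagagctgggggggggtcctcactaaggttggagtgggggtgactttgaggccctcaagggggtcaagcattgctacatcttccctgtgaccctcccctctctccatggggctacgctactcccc
Elane: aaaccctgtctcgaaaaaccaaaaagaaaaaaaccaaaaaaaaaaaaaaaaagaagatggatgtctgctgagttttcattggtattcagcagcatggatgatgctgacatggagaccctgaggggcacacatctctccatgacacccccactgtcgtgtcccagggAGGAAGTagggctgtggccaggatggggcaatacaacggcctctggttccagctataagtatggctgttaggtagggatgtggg
Prtn3: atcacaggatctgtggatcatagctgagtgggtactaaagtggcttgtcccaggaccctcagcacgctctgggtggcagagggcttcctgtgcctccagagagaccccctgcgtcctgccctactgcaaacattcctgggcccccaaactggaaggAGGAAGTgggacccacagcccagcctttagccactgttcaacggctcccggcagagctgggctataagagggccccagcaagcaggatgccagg
Ctsg: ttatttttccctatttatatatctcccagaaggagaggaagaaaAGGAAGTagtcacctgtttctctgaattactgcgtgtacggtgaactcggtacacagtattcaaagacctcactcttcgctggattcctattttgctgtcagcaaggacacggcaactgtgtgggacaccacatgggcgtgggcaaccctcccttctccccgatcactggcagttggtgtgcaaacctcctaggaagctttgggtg
Olfm4: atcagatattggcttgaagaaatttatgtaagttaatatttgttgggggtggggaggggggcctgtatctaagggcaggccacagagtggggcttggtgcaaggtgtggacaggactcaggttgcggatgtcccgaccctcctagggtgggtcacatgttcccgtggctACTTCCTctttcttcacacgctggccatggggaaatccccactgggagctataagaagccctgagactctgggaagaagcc
Ltf: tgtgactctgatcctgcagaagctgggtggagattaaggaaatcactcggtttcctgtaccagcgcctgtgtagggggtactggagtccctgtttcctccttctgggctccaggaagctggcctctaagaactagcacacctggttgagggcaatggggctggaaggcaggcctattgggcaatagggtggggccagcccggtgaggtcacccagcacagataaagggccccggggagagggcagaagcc
Camp: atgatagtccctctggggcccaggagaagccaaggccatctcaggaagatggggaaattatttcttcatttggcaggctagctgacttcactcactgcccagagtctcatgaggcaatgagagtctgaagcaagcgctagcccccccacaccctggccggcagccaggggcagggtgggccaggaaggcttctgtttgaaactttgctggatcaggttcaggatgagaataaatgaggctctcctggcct

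AGGAAGT, searched on both strands of the 300-base windows, occurred in 4 of 4 primary promoters and in 2 of 6 later ones (S100a8 and Olfm4, both on the opposite strand), against 9.35% of 32851 mouse promoters of that length. It began 223 bases before the start of Mpo, 206 before Ctsg, 94 before Prtn3 and 84 before Elane. Prtn3 and Elane are direct neighbours on chromosome 10 and share more of the layout: both carry AACGG, the core of the MYB site, 55 bases (Prtn3) and 50 bases (Elane) before the start, and TATAA 32 and 31 bases before it. AACGG was found in 2 of 4 primary and 0 of 6 later promoters (17.4% of all promoters), and TATAA in 3 of 4 primary and 2 of 6 later promoters (24.9% of all). The TATAA match of Ctsg lay 236 bases before the start on the opposite strand, whereas those of S100a8 and Olfm4 lay 30 and 32 bases before it. GCAAT, which is contained in the site of C/EBP factors, was found in 5 of 6 later promoters, all but that of Olfm4, and in those of Mpo and Elane among the primary ones (26.4% of all promoters). No match of one motif overlapped a match of another. The motif letters were chosen with these promoters in view, so the counts describe them and are no test, and a match is not shown to be a used site.

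The 4 primary granule genes had the same order of group means: lowest after lactation, intermediate in lactation and highest in virgin mice. This order held for 4 of 4 primary and 0 of 6 later members, against 13.1% of all genes, and without virgin 1 for 3 of 4 primary members, all but Mpo. None of the differences passed the test, and the 3 virgin arrays spread more widely than either of the other groups.

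Mpo encodes myeloperoxidase, which makes hypochlorous acid from hydrogen peroxide and is the most abundant protein of primary granules (chromosome 11). Its log2 signal was 12.66, 12.24 and 12.40 on post-lactation arrays 1 to 3, against 12.38, 12.56 and 12.95 on lactation arrays 1 to 3 and 13.28, 13.06 and 12.19 on virgin arrays 1 to 3. All 3 groups overlapped, and both the highest and the lowest of the 9 values were on virgin arrays.

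Elane encodes neutrophil elastase, a serine protease that degrades elastin and bacterial proteins. Its signal was 9.85, 9.63 and 10.10 on the post-lactation arrays, against 10.08, 10.26 and 10.53 in lactation and 11.33, 11.06 and 9.86 in virgin mice. Post-lactation 3 lay just above the lowest lactation array, and virgin 3 lay among the post-lactation values.

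Prtn3 encodes proteinase 3, a protease closely related to elastase and encoded beside it. It had signals of 11.27, 11.43 and 11.32 after lactation, against 11.56, 11.63 and 11.65 in lactation and 12.59, 12.27 and 11.40 in virgin mice. Every post-lactation array lay below every lactation array, whereas virgin 3 fell within the post-lactation range. Ctsg, the gene of cathepsin G, showed 11.44, 11.31 and 11.24 after lactation, against 11.58, 11.50 and 11.64 in lactation and 12.67, 12.12 and 11.12 in virgin mice. Again the post-lactation values were all below the lactation values, and the virgin arrays reached both above and below them.

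The 6 later genes had another order of group means: highest after lactation, intermediate in virgin mice and lowest in lactation. This order held for 6 of 6 later and 0 of 4 primary members, against 20.3% of all genes and 26.5% of the 1147 genes with a mean signal at least that of the dimmest member. Without virgin 1 it held for 5 of 6 later members, all but S100a8. Only Olfm4 passed the test, in the comparison of post-lactation with lactation mice.

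Olfm4 encodes olfactomedin 4, a glycoprotein that marks a subset of neutrophils and sits in their specific granules (chromosome 14). Its signal was 9.73, 9.88 and 10.20 on the post-lactation arrays, against 8.69, 8.38 and 8.71 in lactation and 9.88, 9.25 and 9.02 in virgin mice. The lactation arrays lay below all 6 others, and the virgin arrays lay between them and the post-lactation arrays except for virgin 1, which fell among the post-lactation values. Ltf encodes lactoferrin, the iron-binding protein that defines specific granules and is also a protein of milk. It showed 13.64, 13.40 and 13.48 after lactation, against 12.87, 12.59 and 13.13 in lactation and 13.55, 13.23 and 12.83 in virgin mice. The post-lactation arrays were all above the lactation arrays, and the virgin arrays spanned the gap between the groups.

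Camp encodes the precursor of the cathelicidin peptide that permeabilises bacterial membranes. Its signal was 14.27, 14.15 and 14.38 after lactation, against 13.73, 13.78 and 13.94 in lactation and 14.12, 14.12 and 13.84 in virgin mice. All post-lactation arrays exceeded all others. Ngp, a neutrophilic granule protein related to the cathelicidins and cystatins, showed 14.14, 14.20 and 14.45 after lactation, against 13.95, 14.07 and 14.00 in lactation and 14.29, 14.35 and 13.92 in virgin mice. The post-lactation and lactation values did not overlap, and 2 of the 3 virgin arrays lay within the post-lactation range. Camp, Ngp and Ltf all lie on chromosome 9.

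Lcn2 encodes lipocalin 2, which withholds iron from bacteria by binding their siderophores. It had 13.06, 13.18 and 13.42 on the post-lactation arrays, against 12.58, 12.47 and 12.75 in lactation and 13.19, 13.06 and 12.67 in virgin mice. Post-lactation and lactation arrays were separate, and the virgin arrays overlapped both groups. S100a8 encodes a subunit of calprotectin, a cytosolic protein that binds calcium, zinc and manganese and is not itself a granule protein. Its signal was 14.08, 14.43 and 14.64 after lactation, against 14.18, 14.20 and 13.84 in lactation and 14.12, 14.49 and 14.33 in virgin mice. Here all groups overlapped.

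Camp, Ngp and S100a8 gave signals near the top of the array's range, where probes may approach saturation. Camp and Ngp were the brightest probe set of their array in at least 1 case, and S100a8 stayed 0.14 to 0.69 below the brightest. Olfm4, the dimmest member, lay 4.41 to 6.50 below it. How far saturation compressed the differences of the bright members was not tested.

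**Figure D1:**
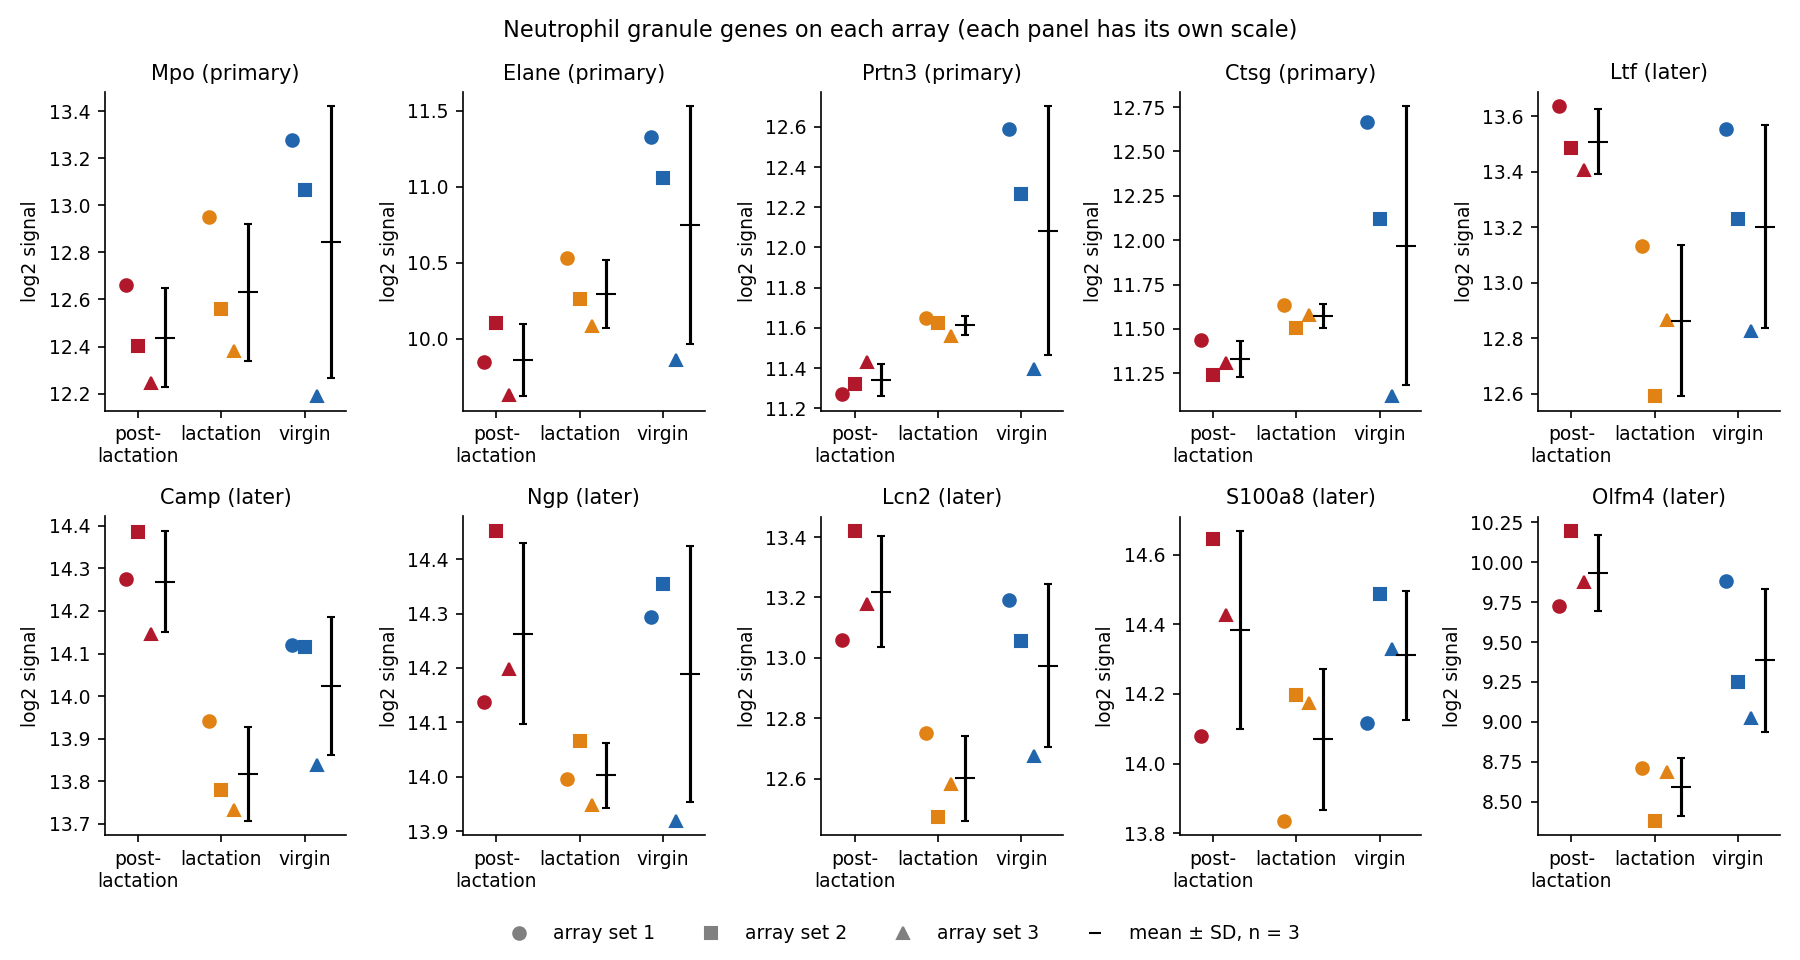
Log2 signal of each of the 10 granule genes on each array (y axis, own scale per panel) for post-lactation, lactation and virgin mice (x axis); symbols give the array set and the bar beside each group its mean ± SD (n = 3). The post-lactation points of Ltf, Camp, Ngp, Lcn2 and Olfm4 all lie above the lactation points, those of Prtn3 and Ctsg all below, and virgin 3 (blue triangle) is the lowest virgin array for 9 of the 10 genes.

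The main contrast for these genes was post-lactation against lactation, the week after suckling ended. All 6 later members had higher means after lactation, as did 49.9% of all genes, and all 4 primary members had lower ones, as did 49.4%. The median log2 difference was 0.53 over the later members and -0.26 over the primary members, against 0.00 over all 18194 genes, where the 5th and 95th percentiles were -0.47 and 0.39. Of the 10 members, 1 (Olfm4) was called at an adjusted p under 0.05, beside 129 genes or 0.709% of all genes. Only 3 genes, or 0.0165%, were called higher after lactation, of which Olfm4 is one.

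Olfm4 averaged 9.93 ± 0.24 on the post-lactation arrays and 8.59 ± 0.18 on the lactation arrays (SD, n = 3 each). The difference of 1.34 on the log2 scale (SE 0.25) is 2.53-fold, with limma adjusted p = 0.0381, and adjusted p = 0.0379 by limma with an array set block. The call depended on single arrays: without virgin 2, or without any 1 of the 6 post-lactation and lactation arrays, the adjusted p from limma ran from 0.0547 to 0.219, while the difference stayed between 1.21 and 1.45. It was 0.0127 without virgin 1 and 0.0353 without virgin 3. Within array sets 1, 2 and 3 the difference was 1.02, 1.82 and 1.19.

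The other later members were higher after lactation by amounts that did not pass the test. The log2 differences were 0.64 (SE 0.24) for Ltf, 0.62 (SE 0.21) for Lcn2, 0.45 (SE 0.19) for Camp, 0.31 (SE 0.22) for S100a8 and 0.26 (SE 0.20) for Ngp. With the array set as a block Camp was called as well (limma adjusted p = 0.0369, against 0.869 without the block), and Ltf missed the threshold at an adjusted p of 0.0744 by limma, against 0.657. With the block 2 of 10 members were called, both higher, beside 3.53% of all genes called in either direction and 98 genes, or 0.539%, called higher. Camp is thus called only where the sets are taken into account, and in fits that also left out an array it was called only without virgin 1.

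The later members were higher after lactation in each of the 3 array sets in 6 of 6 cases, against 12.8% of all genes. Their groups did not overlap in 5 of 6 cases, all but S100a8, against 3.26% of all genes. The within-set differences ran from 0.14 (Ngp, set 1) to 1.82 (Olfm4, set 2), and for each of the 6 genes the largest was in set 2.

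The primary members were lower after lactation, by a smaller median amount (-0.26, against 0.53 for the later members). The log2 difference was -0.43 (SE 0.34) for Elane, -0.27 (SE 0.28) for Prtn3, -0.24 (SE 0.32) for Ctsg and -0.19 (SE 0.29) for Mpo, and none passed the test with or without the block. All 4 were lower within each of the 3 array sets, against 16.1% of all genes. Their groups did not overlap in 2 of 4 cases, Prtn3 and Ctsg, against 4.38% of all genes.

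**Figure D2:**
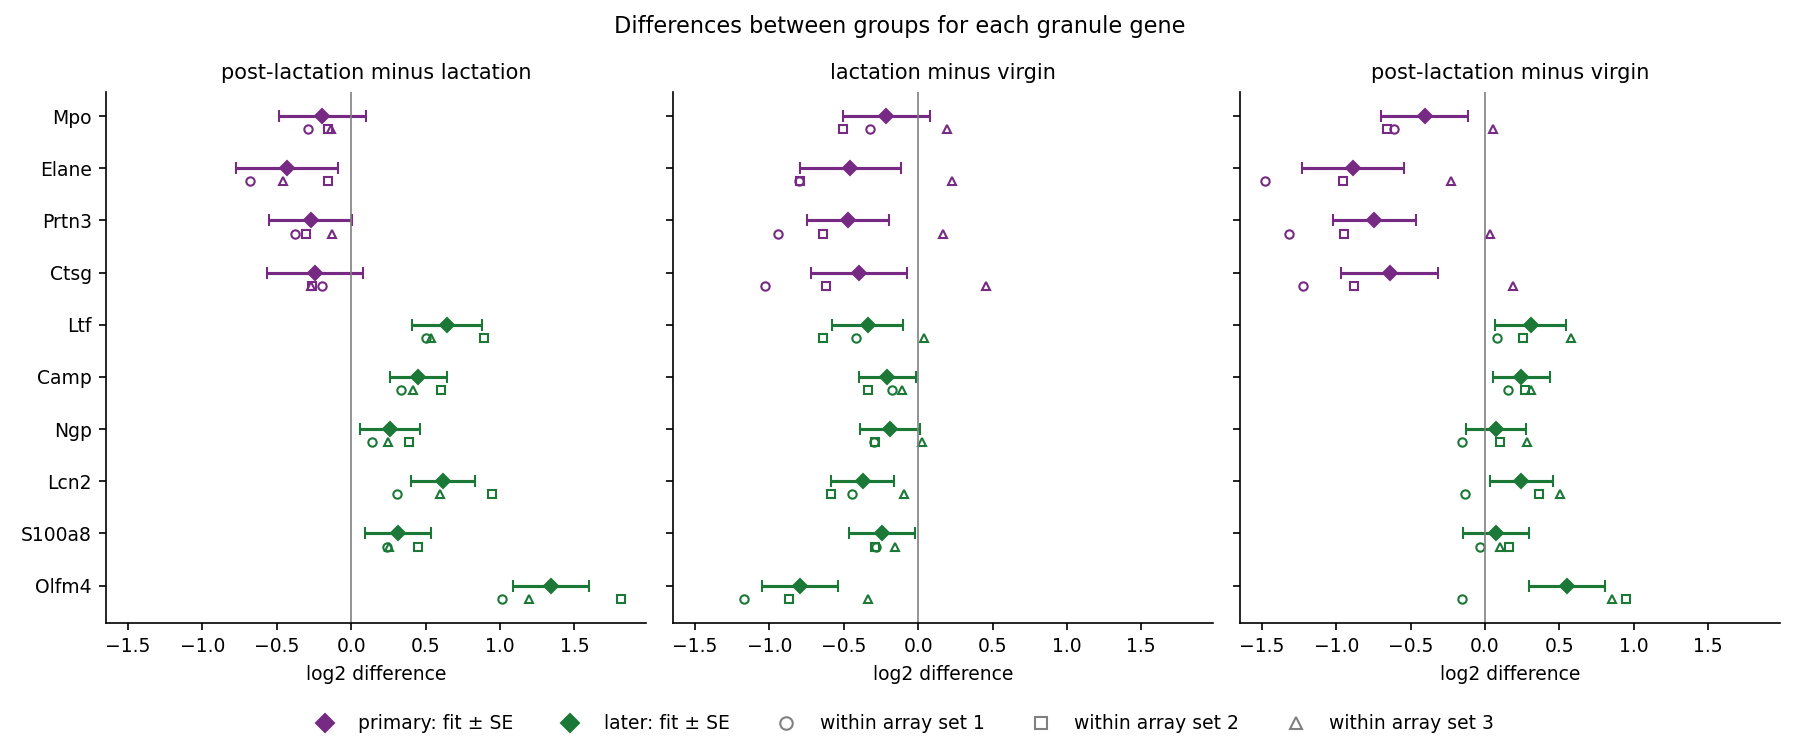
Log2 difference between groups (x axis) for each granule gene (y axis); diamonds with bars give the fitted difference ± SE (9 arrays) and open symbols the difference within each array set. In the panel of post-lactation minus lactation all primary genes lie left of 0 and all later genes right of it, up to 1.34 for Olfm4, within every array set too.

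The balance between the classes was summarised on each array as the mean signal of the 6 later members minus that of the 4 primary members. It is a difference between probe sets, so only its change between arrays can be read. It was 1.85, 2.05 and 2.16 on post-lactation arrays 1 to 3, against 1.27, 1.09 and 1.04 on lactation arrays 1 to 3 and 0.73, 0.95 and 1.63 on virgin arrays 1 to 3. The post-lactation arrays had the 3 highest values, and the lactation arrays lay inside the range of the virgin arrays. Group means were 2.02 ± 0.16 after lactation, 1.13 ± 0.12 in lactation and 1.10 ± 0.47 in virgin mice (SD, n = 3 each). Within array sets 1, 2 and 3 the post-lactation array exceeded the lactation array by 0.81, 1.07 and 0.79. No test was run on this balance, because its genes were chosen with results known.

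**Figure D3:**
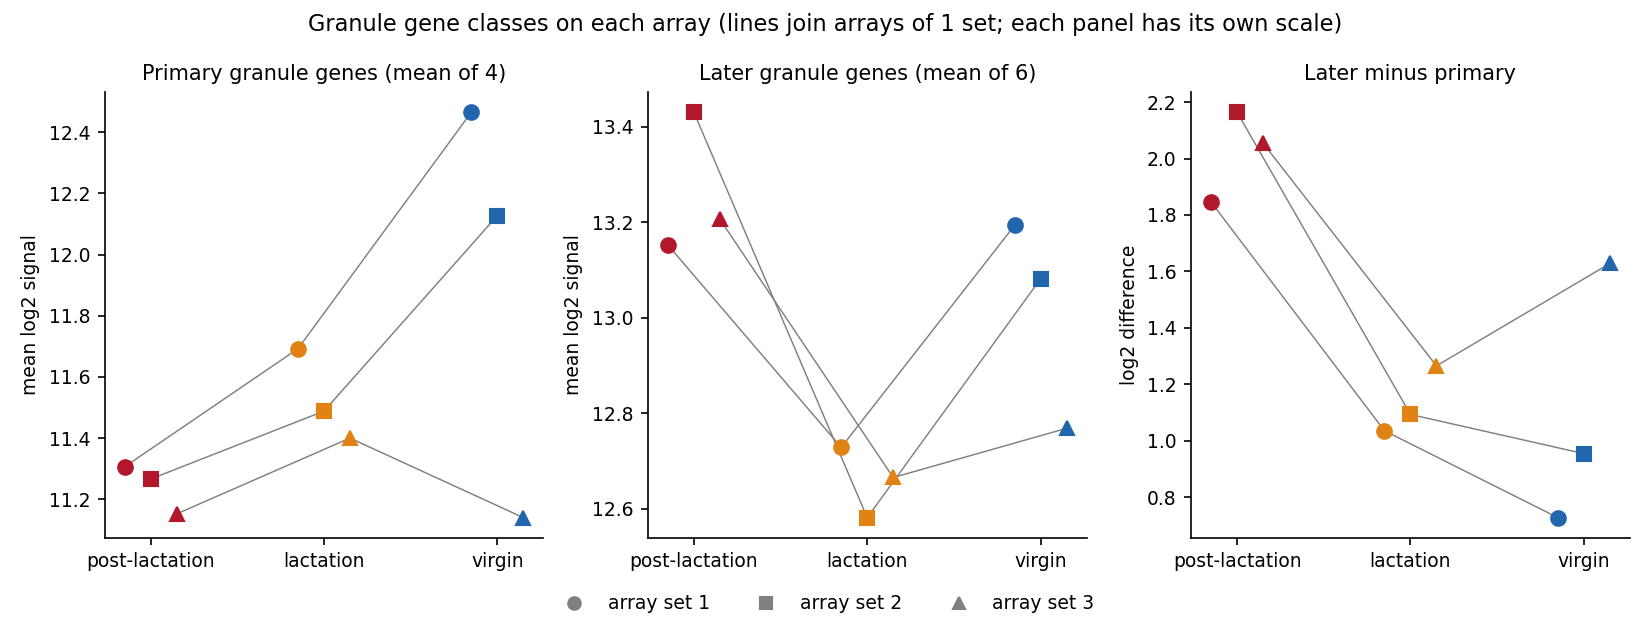
Mean log2 signal of the 4 primary genes, mean of the 6 later genes, and their difference (y axes, own scales) on each array for post-lactation, lactation and virgin mice (x axis); lines join the 3 arrays of an array set. The difference is 1.85 to 2.16 on post-lactation arrays, 1.04 to 1.27 on lactation arrays and 0.73 to 1.63 on virgin arrays.

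Over the 9 arrays, members of a class varied together and the classes did not. After removing the array median and the mean of each array set, Pearson's r was 0.94 to 0.98 for the 6 pairs of primary genes and 0.86 to 0.98 for the 15 pairs of later genes. For the 24 pairs of a primary with a later gene it was -0.28 to 0.33. These correlations describe arrays that share 3 groups and 3 sets.

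Lactation against virgin mice compares dams on day 12 of lactation with mice that had no litter, so pregnancy, delivery and nursing are not separated. All 10 members had lower means in lactation, as did 47.1% of all genes, with a median log2 difference of -0.43 for the primary and -0.29 for the later members, against 0.01 over all genes. None of the 10 was called by limma, and none of all genes was (0%), while at an unadjusted p under 0.05 it was 1 of 10 members, Olfm4, and 328 genes or 1.8%. With the array set block 4 genes (0.022%) were called, no member among them, and 4 later members had an unadjusted p under 0.05, beside 8.01% of all genes.

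Olfm4 differed most, by -0.79 (SE 0.25), which is 1.73-fold lower in lactation (limma unadjusted p = 0.0098, adjusted p = 1.00), and it was the one member whose groups did not overlap, against 0.698% of genes that were lower without overlap. For the primary genes the difference depended on the virgin arrays. Their median was -0.87 in array set 1, -0.63 in set 2 and 0.21 in set 3, and without virgin 1 it was -0.11 over the group. Without virgin 1 Mpo no longer differed in that direction (0.0042), and Ctsg was at -0.05. The later members moved less with the set, at -0.36, -0.46 and -0.10, and without virgin 1 their median was -0.21, with -0.54 for Olfm4. Camp, Lcn2, S100a8 and Olfm4 were lower in lactation within all 3 sets, against 6.11% of all genes.

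Post-lactation against virgin mice compares dams a week after weaning with mice that had no litter, so pregnancy and nursing are again not separated. The primary members were all lower after lactation (48.6% of all genes were) and the later members all higher (50.5% were), with median log2 differences of -0.69 and 0.24, against 0.00 over all genes. None of the 10 was called by limma, beside 32 genes or 0.176%, and none with the array set block, beside 0.451%. At an unadjusted p under 0.05 there were 2 members (Elane and Prtn3), beside 2.09% of all genes, and with the block 4 (Mpo, Elane, Prtn3 and Camp), beside 8.11%.

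Elane averaged 9.86 ± 0.24 after lactation and 10.75 ± 0.78 in virgin mice (SD, n = 3 each), a difference of -0.89 (SE 0.34) or 1.85-fold lower after lactation. Prtn3 differed by -0.74 (SE 0.28), Ctsg by -0.64 (SE 0.32) and Mpo by -0.41 (SE 0.29). The primary median was -1.27 and -0.91 in array sets 1 and 2 and 0.05 in set 3, where Mpo (0.06), Prtn3 (0.03) and Ctsg (0.19) were higher after lactation and Elane (-0.23) was lower, as in the other sets. Without virgin 1 the primary median was -0.39, with -0.60 for Elane, -0.49 for Prtn3, -0.29 for Ctsg and -0.19 for Mpo.

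Among the later genes the difference from virgin mice was 0.55 (SE 0.25) for Olfm4, 0.31 (SE 0.24) for Ltf, and 0.24 for both Lcn2 (SE 0.21) and Camp (SE 0.19). For Camp the groups did not overlap, against 1.17% of genes that were higher without overlap. Ngp and S100a8 were both 0.07 higher (SE 0.20 and 0.22), and their direction turned with the scaling: after quantile normalization of all arrays they were at -0.04 and -0.03. Within array set 1 post-lactation 1 lay below virgin 1 for Olfm4, Lcn2, Ngp and S100a8, with log2 differences of -0.16, -0.13, -0.15 and -0.04. Without virgin 1 the median over the later members was 0.32, with 0.80 for Olfm4, 0.48 for Ltf, 0.35 for Lcn2, 0.29 for Camp, 0.13 for Ngp and -0.02 for S100a8.

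Comparisons that share the lactation or the virgin arrays are not independent of each other, so their values are set side by side only. The lists that follow were written with earlier results known, and 203 of their 235 entries had a probe set of their own. Csf3r and Mmp9 recur between lists and are counted in each.

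The genes listed as other specific granule genes, 20 in all, behaved in direction like the later members. Whether each of them belongs to these granules was not tested. After lactation 19 of 20 were higher than in lactation, with a median log2 difference of 0.70, and none passed the test (with the array set as a block, Tcn2 did). Tcn2, which encodes the vitamin B12 carrier transcobalamin 2, averaged 10.85 ± 0.20 after lactation and 9.76 ± 0.20 in lactation, a difference of 1.09 (SE 0.27, limma adjusted p = 0.159 and 0.0225 with the block). On virgin arrays 1 to 3 Tcn2 was at 9.93, 10.73 and 10.86, lowest on virgin 1, where Ceacam10 of the same list was highest (8.53, 6.99 and 6.88). Whether the Tcn2 signal came from neutrophils was not tested. Ceacam10, an adhesion molecule of the carcinoembryonic antigen family, was 1.16 higher (SE 0.40). The exception was Chil3, a chitinase-like protein of neutrophils and macrophages, at -0.22 (SE 0.39). In lactation 18 of 20 were lower than in virgin mice (median -0.63), but the median was -0.85 and -0.67 in array sets 1 and 2 and 0.01 in set 3, and without virgin 1 it was -0.25, with 14 of 20 lower.

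Genes of the mature neutrophil's surface and cytosol, 25 in all, were higher after lactation than in lactation in 25 of 25 cases, with a median log2 difference of 0.66, and none passed the test with or without the block. The largest differences were those of Stfa3, 2.71 (SE 1.04), and Stfa2l1, 2.47 (SE 0.74), both encoding stefin A inhibitors of cysteine proteases. Stefin A genes are near-identical copies, so their probe sets may share signal. Against virgin mice, 20 of the 25 mature neutrophil genes were higher after lactation (median 0.22), with -0.54, 0.36 and 0.79 in array sets 1, 2 and 3. Their average above the array median was highest on virgin 1, at 5.83, against 5.04 to 5.18 after lactation. Stfa3 was at 10.80 on virgin 1, against 7.23 to 8.60 after lactation. Without virgin 1 the list median was 0.51, with 25 of 25 higher. Between post-lactation and lactation mice, the 11 genes of gelatinase granules and secretory vesicles had a median log2 difference of 0.29. In this comparison 10 of 11 were higher after lactation and none was called. Fpr2, a receptor for formylated peptides, was 1.08 higher (SE 0.33), and Mmp9, the gelatinase that gives these granules their name and that osteoclasts also make, was at -0.11 (SE 0.23).

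Other genes of primary granules and promyelocytes did not share one direction. Of 12, 7 were higher and 5 lower after lactation than in lactation, with a median of 0.12 and none called. Fcnb, a ficolin of immature neutrophils, was at -0.45 (SE 0.31), and Cst7, cystatin F, at -0.40 (SE 0.34), while Igsf6, an immunoglobulin family receptor, was at 0.58 (SE 0.34) and Rnase6 at 0.50 (SE 0.32), with a lactation mean of 4.43 that counts as low. Against virgin mice, 3 of the 12 were higher and 9 lower after lactation (median -0.18). Without virgin 1, 6 were higher and 6 lower (median 0.02). Fcnb was at -0.69 (SE 0.31) and Gstm1, a glutathione transferase, at -0.67 (SE 0.25), and without virgin 1 they were at -0.40 and -0.44. At the other end were Rnase6 at 0.29 (SE 0.32), with a low virgin mean of 4.63, and Lyz2 at 0.19 (SE 0.20). Without virgin 1 Rnase6 and Lyz2 were at 0.14 and 0.23.

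Transcription factors and growth factor genes of granulocyte formation were higher after lactation than in lactation in 18 of 21 cases (median 0.37). The one called was Gfi1b, a repressor known for its role in erythroid and megakaryocytic cells, which fell. It averaged 5.78 ± 0.32 after lactation and 7.71 ± 0.05 in lactation (SD, n = 3 each), a difference of -1.92 (SE 0.25, limma adjusted p = 0.0036) or 3.80-fold lower. Il6, a cytokine that promotes granulocyte output, was 1.20 higher (SE 0.33) and its receptor Il6ra 1.05 higher (SE 0.26), with limma adjusted p = 0.254 and 0.181. Irf8, which favours monocytes over granulocytes, was 0.63 higher (SE 0.24) and was called only with the block (limma adjusted p = 0.0294, against 0.738).

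**Figure D4:**
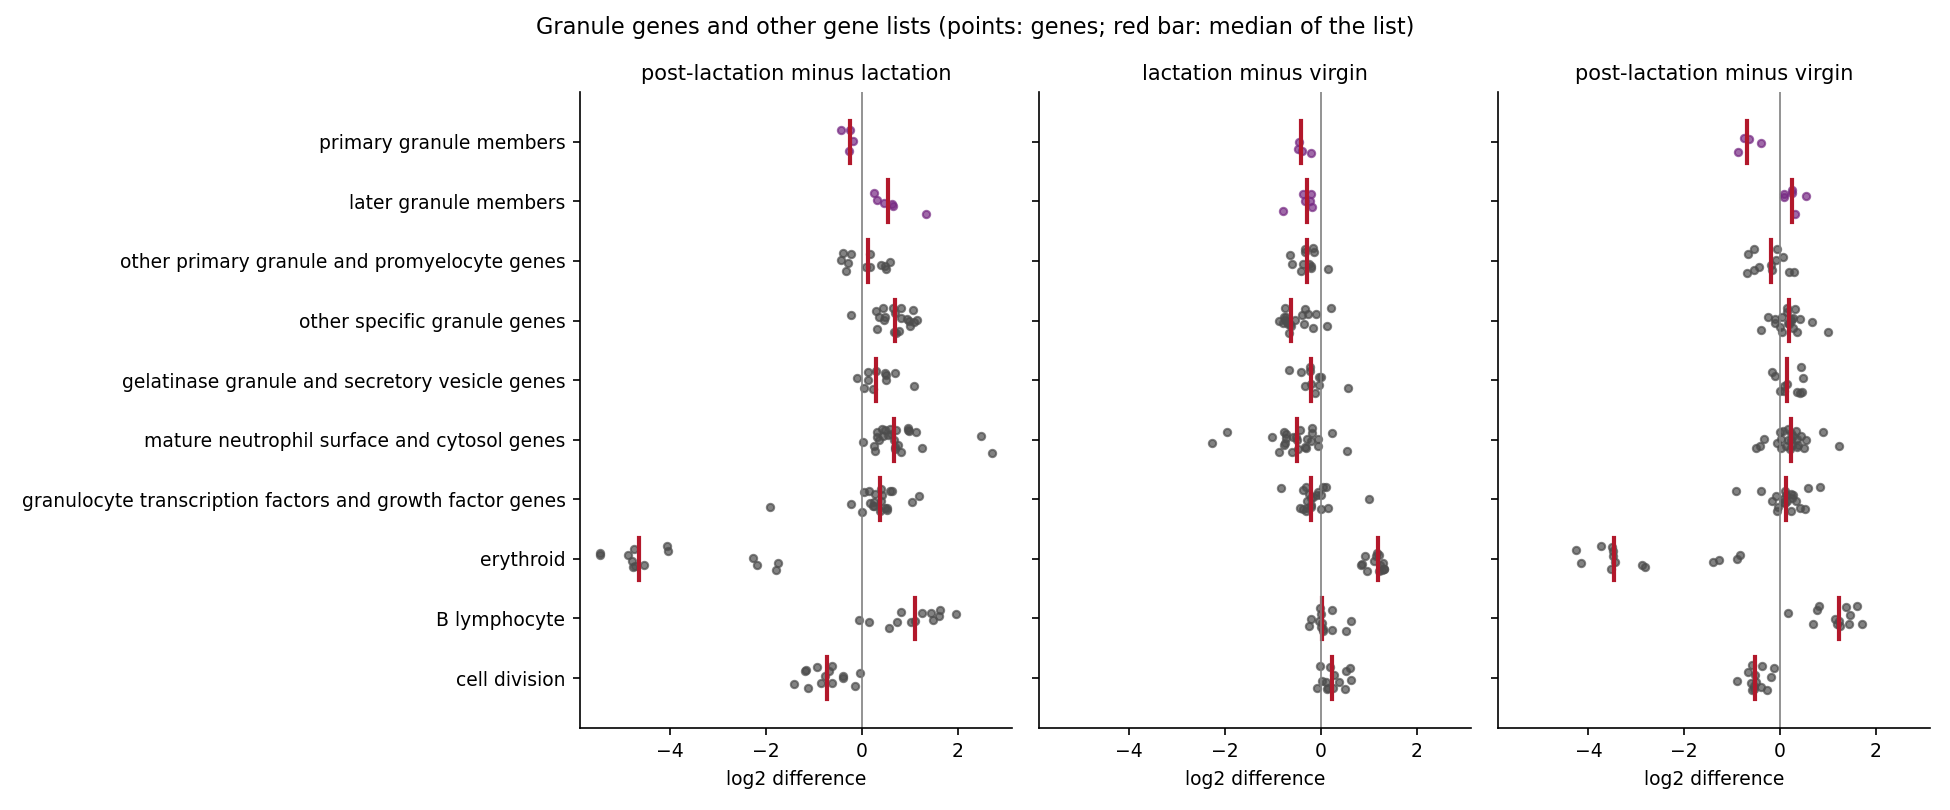
Log2 difference between groups (x axis) for the genes of each list (rows; each point a gene, red bar the median of the list), in 3 panels for the 3 comparisons. After lactation against lactation the later members and the lists of specific granule and mature neutrophil genes centre at 0.53, 0.70 and 0.66, the primary members at -0.26 and the erythroid genes at -4.65.

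Markers of other blood cells moved between the same groups. Level here means the average log2 signal of a list above the array's median. All 14 erythroid genes were lower after lactation than in lactation, 13 of them called, with a median log2 difference of -4.65. The post-lactation mean of 5 of them (Rhag, Epb42, Kel, Trim10 and Cldn13) lay below 4.87, and with those means set to 4.87 the median was -4.08. Their level was 0.34 to 0.98 on post-lactation arrays, against 4.48 to 4.91 in lactation and 3.06 to 4.04 in virgin mice. Of 13 B lymphocyte genes 12 were higher after lactation, none called (Vpreb1 with the block), with a median of 1.10 and levels of 2.86 to 3.52, against 1.94 to 2.52 in lactation and 0.99 to 2.62 in virgin mice. The level of 0.99 was that of virgin 1, and virgin 2 and virgin 3 were at 2.62 and 2.55. All 14 cell division genes were lower after lactation (median -0.73, Rrm2 called, 7 with the block), with levels of 3.66 to 4.03, against 4.28 to 4.90 in lactation and 3.90 to 4.81 in virgin mice.

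The monocyte and macrophage list changed less between post-lactation and lactation mice, with a median of 0.14 over 14 genes, 12 of them higher and none called, at levels of 3.03 to 3.37 after lactation, against 2.97 to 3.35 in lactation and 2.85 to 3.16 in virgin mice. Of 10 osteoclast genes 9 were lower after lactation (median -0.98), none called and 5 called with the block, at levels of 2.91 to 3.49, against 3.78 to 4.23 in lactation and 2.86 to 2.97 in virgin mice. The median over 12 osteocyte genes was 0.03, and their levels were 4.26 to 4.96, against 4.49 to 4.82 in lactation and 2.99 to 5.31 in virgin mice, where the lowest was virgin 1. No marker of these lists is at 0, since the scale has no zero: 1 gene each of the B lymphocyte, cell division, monocyte, osteoclast and osteocyte lists had a mean over the 9 arrays below 4.87, and none of the erythroid list. The part of these cells in the differences of the granule genes was not tested.

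The genes most like each class over the 9 arrays were taken from 10906 genes with a mean above 4.87, by Pearson's r with the class mean after removing array medians and set means. For the primary class they were Gstm1 (r = 0.967), Ms4a3 (0.966), B4galt6 (0.963), Mgl2 (0.962) and Nkg7 (0.958). Ms4a3 is a marker of granulocyte-monocyte progenitors. For the later class they were Lsp1 (r = 0.997), Syne1 (0.994), Sh3bgrl3 (0.993), Dock11 (0.988) and S100a9 (0.987). S100a9 encodes the partner of S100a8 in calprotectin and lies beside it on chromosome 3. Lsp1, a leukocyte actin-binding protein, was 0.83 higher after lactation than in lactation, with a difference of -0.43 between lactation and virgin mice, or -0.25 without virgin 1.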

How the data were processed

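Per the submitters' processing notes the deposited values are log2 signals summarised by RMA, which corrects background, equalises array distributions and combines the probes of a probe set. The design text names GenePattern and Bioconductor; versions and filters were not stated in any source used here. The table held 45101 probe sets and 9 arrays with no missing value, and no detection calls were used. Probe sets naming 1 gene (34958) were kept, 1 per gene by the highest mean, giving 18194 genes. limma 3.58.1 in R 4.3.3 (lmFit, eBayes without trend) compared group means over all 9 arrays, with Benjamini-Hochberg adjustment over all genes and calls at an adjusted p under 0.05; it was tested on simulated data. Array sets were inferred from exactly equal values, shared by at least 2.50% of probe sets within a set and at most 0.0044% between sets. Pairs of arrays shared 2.50% to 2.72% in set 1, far less than the 36.1% to 44.1% in sets 2 and 3. Group means below the 40th percentile of gene means (4.87) count as low. Members, lists and the naming rule (all members; per list up to 2 genes with the largest difference in each direction whose higher mean passed that percentile; 5 most alike per class) were chosen with earlier results of these data known. Genes named from the marker lists, and those called only with a block, were picked after their values were seen. The alternatives tried were blocks, arrays left out, 2 scalings, averaged probe sets, a filter on low values, an intensity trend and fits of 2 groups, and, chosen after seeing the data, lists and orders without virgin 1 and list medians with low means set to that percentile. Precision is limited by having 3 arrays per group.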

Additional observations from a re-analysis of the deposited data

How the results depend on the processing

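Between post-lactation and lactation mice the number of members called was 1, and it was 2 (Camp and Olfm4) with the array set as a block. It was 0 with a replicate block (Olfm4 at limma adjusted p = 0.0765), after centring arrays on their median (0.0720), after quantile normalization (0.0509) and without the 3 arrays of the set of virgin 1 (0.223), and 0 to 1 when single arrays were left out. The replicate numbers of the titles did not pair arrays, since deviations from the group means correlated between -0.41 and 0.67 for equal numbers (0.47 to 0.73 within array sets), and the replicate block called 118 genes, against 129. The block combined with leaving out an array or an array set was added after seeing the data: it gave 0 to 2 without 1 array, namely 2 without virgin 1 (Camp and Olfm4), 2 without virgin 3 (Ltf and Olfm4) and 0 otherwise, and 0 without array set 1, 2 or 3, where fewer arrays were fitted. The cause of the other changes was not tested. In the other comparisons the number of members called was 0 under every setting. Reversed signs were all of uncalled values near 0: Mpo in lactation against virgin mice without virgin 1 (0.0042, with a range over arrays left out of -0.54 to 0.0042), and in post-lactation against virgin mice Ngp without virgin 3 (-0.061, range -0.061 to 0.157), without post-lactation 3 (-0.021), with quantile normalization (-0.042), with the block and without virgin 3 (-0.031) or array set 3 (-0.028), and S100a8 without virgin 1 (-0.024), without post-lactation 3 (-0.057, range -0.057 to 0.225) and with quantile normalization (-0.031). The medians of both classes kept their sign under every setting tried for them: between post-lactation and lactation mice they ran from -0.31 to -0.19 for primary and from 0.44 to 0.61 for later members. Between lactation and virgin mice they ran from -0.82 to -0.11 and from -0.42 to -0.21, and between post-lactation and virgin mice from -1.08 to -0.39 and from 0.11 to 0.35. Single array sets are not among these settings, and within them medians of the virgin comparisons changed sign. In set 3 the primary median against virgin mice was 0.21 in lactation and 0.05 after lactation. In set 1 the later median was -0.09 after lactation against virgin mice. Over all genes, calls between post-lactation and lactation mice numbered 129, with the block 642, with quantile normalization 200, without the set of virgin 1 0, and 76 to 138 without single arrays. Between post-lactation and virgin mice they numbered 32, with the block 82, without that set 0, and 13 to 34 without single arrays. Signals near the array's maximum limit what Camp, Ngp and S100a8 can show.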

Other observations

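Granule genes of other granulocytes were also measured. Of 6 eosinophil genes all had higher means after lactation than in lactation (median log2 difference 0.31), but within array set 3 the median was -0.24, and none was called. Il5ra and Ccr3 of this list had means over the 9 arrays of 3.42 and 3.09, below 4.87. With group means below 4.87 set to 4.87 the list median was 0.27. Prg2, the major basic protein of eosinophil granules, showed 12.44, 11.39 and 12.68 on post-lactation arrays 1 to 3, against 11.81, 11.60 and 11.77 on lactation arrays 1 to 3 and 10.76, 12.22 and 11.12 on virgin arrays 1 to 3, so all groups overlapped. Of 9 mast cell and basophil genes 7 were higher after lactation than in lactation (median 0.16) and 5 had a mean over the 9 arrays below 4.87, including the mast cell protease Cma1. Hdc, the histamine-forming enzyme that neutrophils of the marrow also express, was the one called in this list, and only with the array set as a block. Its signal was 9.91, 9.79 and 10.26 after lactation, against 9.04, 9.46 and 9.51 in lactation and 9.72, 10.04 and 9.20 in virgin mice, with every post-lactation array above every lactation array. Mcpt8, a basophil protease encoded beside Ctsg on chromosome 14, showed 8.85, 8.25 and 9.12 after lactation, against 7.66, 8.09 and 8.44 in lactation and 8.08, 9.08 and 7.61 in virgin mice, in contrast to Ctsg, whose post-lactation values all lay below its lactation values.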
